A study of Mus musculus with 14 samples.

Results

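Cd72, Cd22, Fcgr2b, Ptpn6 and Inpp5d encode a brake on the B cell antigen receptor, 3 membrane receptors and the 2 phosphatases that such receptors recruit. They were chosen by name, as the rows of the count table with these 5 symbols, out of 9969 genes, and all 5 passed the filter on low counts that left 7999 genes for testing. The table holds counts of unique molecular identifiers (UMIs), tags that mark each captured mRNA molecule so that copies made by PCR are counted once. The cells were germinal centre (GC) B cells of C57BL/6 mice, sorted into zones from the popliteal nodes 14 days after immunization with NP-KLH, a hapten coupled to a carrier protein. All mice were mixed chimeras, 50% wild type (WT) and 50% SykY317F, so both genotypes developed and responded in hosts of the same kind. The 4 groups were SykY317F light zone (LZ, 3 libraries), SykY317F dark zone (DZ, 3), WT LZ (4) and WT DZ (4). The labels do not give the age of the mice, how cells of each genotype were told apart, or whether each library was made from its own mouse. The p-values below therefore measure the spread between these libraries, which may be technical.

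When antigen engages the B cell receptor, the kinase Syk relays the signal, and the kinase Lyn phosphorylates tyrosines in the cytoplasmic tails of the inhibitory receptors. These tyrosines sit in short motifs called ITIMs, which dock phosphatases that remove the phosphates on which the signal depends. SykY317F carries a phenylalanine in place of a tyrosine that, once phosphorylated, is known to bind Cbl ubiquitin ligases and to limit Syk signalling. GC B cells proliferate and hypermutate their antibody genes while in the DZ, and in the LZ they capture antigen and compete for T cell help.

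The 3 receptors recognise different partners. CD72 binds the semaphorin CD100, the product of Sema4d, CD22 binds sialic acids of the kind that St6gal1 makes, and FcγRIIB, the product of Fcgr2b, binds IgG in immune complexes. CD72 and CD22 recruit mainly SHP-1, the tyrosine phosphatase made from Ptpn6, and FcγRIIB recruits mainly SHIP-1, the inositol lipid phosphatase made from Inpp5d. The coding windows below were read from the GENCODE M21 transcripts (GRCm38, the assembly also called mm10) because they hold the motif shared by the inhibitory receptors. Each is 18 bases on the minus strand, written 5′ to 3′, encodes isoleucine, leucine, valine or serine, then any residue, a tyrosine, any 2 residues and isoleucine, leucine or valine, and has the tyrosine codon in capitals. The number in each name is the position of that codon counted from the start codon.
Cd72 codon 7: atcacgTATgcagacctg
Cd72 codon 39: ctcaccTACgagaatgtg
Cd22 codon 783: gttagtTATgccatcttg
Cd22 codon 817: gtcactTACtcggtgata
Cd22 codon 843: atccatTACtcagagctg
Cd22 codon 863: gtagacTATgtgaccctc
Fcgr2b codon 319: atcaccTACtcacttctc

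The Cd72 windows lie in exon 1 (chr4:43454498-43454515) and exon 2 (chr4:43454306-43454323) of a reading frame of 361 codons, and those of Cd22 lie in exons 12 (chr7:30867494-30867511), 13 (chr7:30867033-30867050) and 14 (chr7:30866600-30866617 and chr7:30866540-30866557) of a frame of 868 codons. The Fcgr2b window lies in exon 8 (chr1:170961071-170961088) of a frame of 340 codons. Cd72, whose protein is anchored with its amino end inside the cell, has its windows near the start of the frame, and Cd22 and Fcgr2b have theirs near the end. A search of the longest frames found 4 matches in Cd72, 5 in Cd22 and 1 in Fcgr2b. The matches not printed, at codons 95 and 118 of Cd72 and codon 5 of Cd22, lie outside those stretches. A match is a description of letters, and the libraries, which count transcript ends, do not read these positions.

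Cd72 spans chr4:43446462-43454628 on the minus strand, Cd22 spans chr7:30865402-30880342 (minus), Fcgr2b spans chr1:170958617-170976547 (minus), Ptpn6 spans chr6:124720707-124738714 (minus) and Inpp5d spans chr1:87620312-87720507 (plus), all protein coding. Cd72 overlaps 1603 bases of Tesk1, a kinase gene on the other strand, at the end of the transcript. Antisense genes overlap Cd22 (Gm29439, 601 bases), Fcgr2b (Gm38204, 3175 bases) and Ptpn6 (Gm20531, 5873 bases), and Inpp5d overlaps none. Of the overlapping genes only Tesk1 was among the counted genes, and none of the antisense genes covers the end of the member's transcript. The strand setting of the counting is not given in the sources used here, so reads of these pairs may not be told apart.

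Depth and markers set the frame for every value. Total UMIs ran from 149641 to 379125 in SykY317F LZ, 381954 to 1413310 in SykY317F DZ, 499443 to 1600902 in WT LZ and 747948 to 1767898 in WT DZ. The 3 SykY317F LZ libraries and SykY317F DZ replicate 4 gave 9.37 to 15.8 UMIs per 100 reads, against 33.5 to 53.2 in the other 10. Low yield and the SykY317F LZ group therefore cannot be told apart, since no library of that group gave a high yield. The summed level of 9 GC B cell markers, in CPM (UMIs of a gene relative to the TMM-scaled size of its library), was 7525 to 8250 in SykY317F LZ, 7879 to 8788 in SykY317F DZ, 6141 to 7901 in WT LZ and 8280.4 to 11446 in WT DZ, with none at 0. The LZ marker Cd83 averaged 852 CPM in SykY317F LZ, 406 in SykY317F DZ, 595 in WT LZ and 310.3 in WT DZ, and was higher in LZ over both genotypes (edgeR adjusted p = 0.00848). Cxcr4, the receptor that holds cells in the DZ, did not separate the SykY317F libraries as labelled: it was at 245, 485 and 244.6 CPM in SykY317F LZ against 256, 236 and 337 CPM in SykY317F DZ. The WT zones overlapped for Cxcr4 too, at 159, 170, 96.0 and 93.5 CPM in LZ against 325, 139, 149 and 190 CPM in DZ. Cd86, another LZ marker, also overlapped in WT, at 64.7 to 118 CPM in LZ and 17.0 to 106 CPM in DZ. In SykY317F its zones were apart, at 62.1 to 201 CPM in LZ and 24.9 to 51.1 CPM in DZ.

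Cd72 was the member with the largest difference between the zones in WT and the only one that edgeR called. In SykY317F LZ it was at 716, 751 and 884 CPM, from 133 to 240 UMIs per library, against 466, 601 and 370.4 CPM in SykY317F DZ. In WT LZ it was at 894, 1097, 570.1 and 598 CPM, against 287, 292, 357 and 289.5 CPM in WT DZ. In both genotypes all LZ libraries lay above all DZ libraries, and the WT LZ libraries fell into a higher pair (replicates 1 and 2) and a lower pair (replicates 3 and 5).

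**Figure D1:**
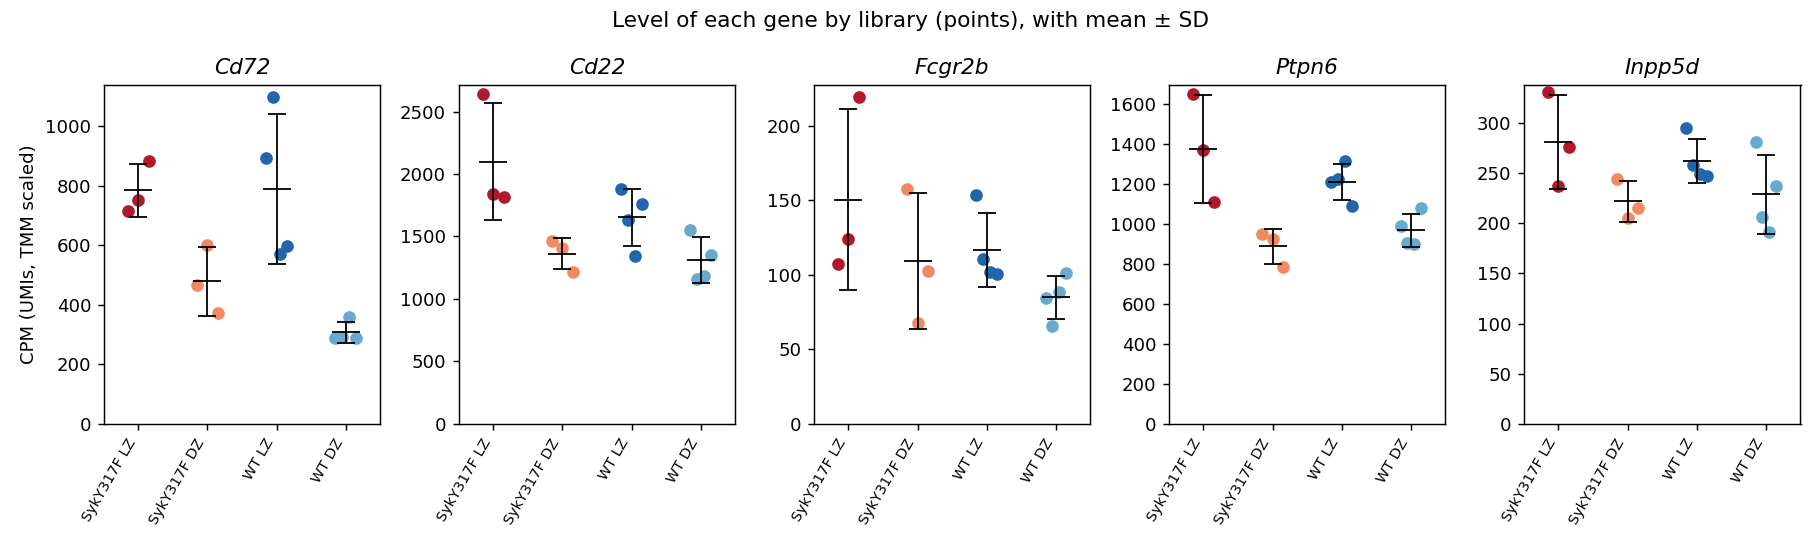
Level of each of the 5 genes (CPM, y axis from 0) in each of the 14 libraries, by group on the x axis, with points for libraries and bars for the group mean and SD. Cd72 averaged 784, 479, 789.7 and 306 CPM in SykY317F LZ, SykY317F DZ, WT LZ and WT DZ, while Inpp5d averaged between 222 and 281 CPM in all 4 groups.

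Cd72 rose in WT LZ relative to WT DZ by 1.37 ± 0.24 on the log2 scale (SE, 95% interval 0.88 to 1.86, 2.58-fold, edgeR quasi-likelihood test, Benjamini-Hochberg adjusted p = 0.0115 over 7999 genes). It was 1 of 5 members called there, where 0.188% of all genes were called. In SykY317F the difference was 0.70 ± 0.27 (interval 0.13 to 1.27) and did not pass (adjusted p = 0.388), with 0 of 5 members called by edgeR, where 0.0375% of all genes were (DESeq2 called 1 of 5, Ptpn6), and 3 of 5 at an unadjusted p under 0.05, which 10.3% of all genes had. Averaged over both genotypes, Cd72 rose in LZ by 1.03 ± 0.18 (interval 0.66 to 1.41, edgeR adjusted p = 0.00614), again the only member that edgeR called, where 1.43% of all genes were. The zone effects themselves differed by -0.66 ± 0.36 (SykY317F minus WT, interval -1.41 to 0.08, edgeR adjusted p = 0.999), so the smaller value in SykY317F is not shown to be a smaller effect.

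Of the 24 alternatives, some left out only SykY317F libraries. Those could move the WT value only through the shared estimate of spread, the scaling and the filter. The WT call held in 20 of the 24, with adjusted p-values down to 7.65e-06 (DESeq2). In the other 4 the adjusted p was 0.0893 without WT LZ replicate 2 (log2 fold change 1.17), 0.0735 without WT DZ replicate 3 (1.35), 0.0690 in an edgeR fit of both WT groups alone (1.38) and 0.182 on read counts (1.46). The call over both genotypes was lost without the 2 libraries with the fewest UMIs, both of SykY317F LZ (0.98, edgeR adjusted p = 0.0792). The direction was the same in each of these, as the plot of Cd72 by setting shows. In the authors' deposited table the WT difference of Cd72 was 1.36 with an adjusted p of 8.94e-06, and that in SykY317F was 0.70 with an adjusted p of 0.400. Tesk1, the overlapping gene, had a log2 fold change of 0.65 ± 0.26 in WT and 0.24 ± 0.32 in SykY317F, neither past the threshold (edgeR adjusted p = 0.451 and 0.855), and its part in the Cd72 counts was not tested.

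**Figure D2:**
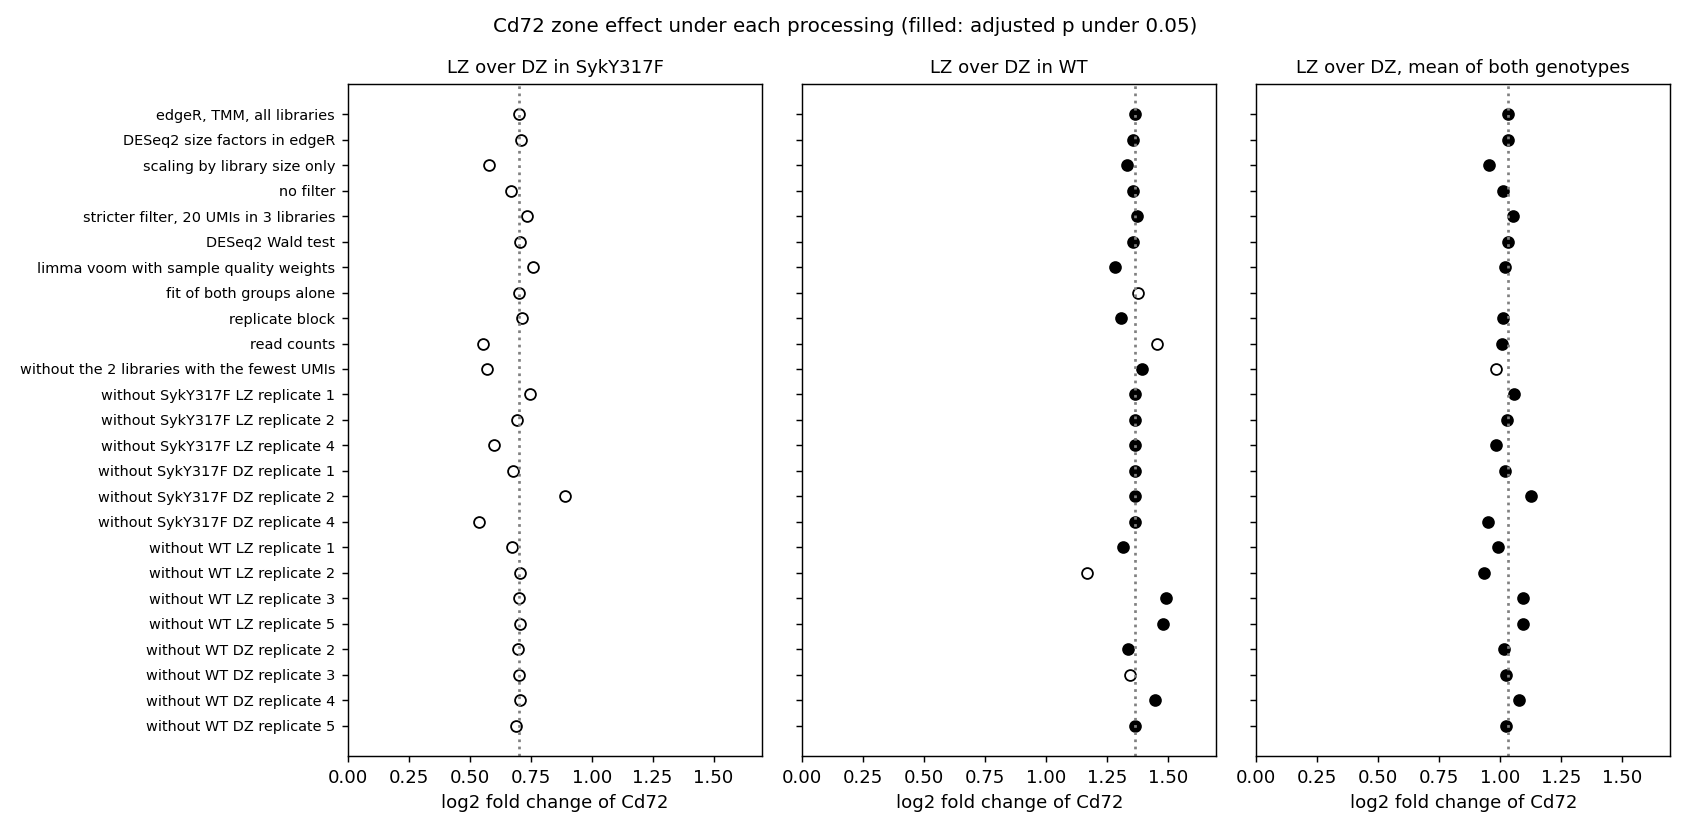
Log2 fold change of Cd72 in edgeR and under each alternative setting, with filled points for calls past the adjusted threshold. All values for LZ over DZ lie above 0 in both genotypes, between 1.17 and 1.49 in WT and between 0.54 and 0.89 in SykY317F.

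The genotypes differed for Cd72 in DZ only by groups that did not overlap, not by the test. All 3 SykY317F DZ libraries, with 370.4 to 601 CPM, lay above all 4 WT DZ libraries, with 287 to 357 CPM. It was 1 of 5 members with such a split, which 3.56% of all genes showed in that direction. The log2 fold change was 0.65 ± 0.25 (SE, interval 0.13 to 1.17, unadjusted p = 0.0166, edgeR adjusted p = 0.9999), and it stayed between 0.42 and 0.80 in the alternatives tried. Tesk1, which overlaps Cd72, was split in the same way, at 104, 92.2 and 93.99 CPM in SykY317F DZ against 73.8, 53.0, 57.8 and 67.2 CPM in WT DZ (log2 fold change 0.62 ± 0.28, edgeR adjusted p = 0.9999), and its part in the Cd72 value was not tested. In LZ the groups overlapped, with 784 ± 88.8 CPM in SykY317F and 789.7 ± 252 CPM in WT (SD, n = 3 and 4). The log2 difference there was -0.01 ± 0.25 (interval -0.54 to 0.51, edgeR adjusted p = 0.995), and its sign changed in 8 of 24 alternatives. By group mean, then, WT LZ and SykY317F LZ stood close together, SykY317F DZ stood below both, and WT DZ stood lowest.

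Markers of another B cell state moved with Cd72. The summed level of 7 naive or memory B cell markers (Fcer2a, Cd38, Klf2 and others) was 1869 to 1951 CPM in SykY317F LZ, 1081 to 1583 CPM in SykY317F DZ, 852 to 1729 CPM in WT LZ and 516 to 946 CPM in WT DZ. Within groups the order was often shared: in SykY317F DZ replicate 2 was highest for both (1583 CPM of markers, 601 CPM of Cd72) and replicate 4 lowest (1081 and 370.4 CPM). In WT LZ replicate 3 was lowest for both, at 852 CPM of markers and 570.1 CPM of Cd72. In WT DZ the orders differed, with replicate 2 highest for the markers (946 CPM) and lowest for Cd72 (287 CPM). Markers of T cells (5 genes summed) stood at 47.8 to 124 CPM in SykY317F LZ, 77.0 to 177 CPM in SykY317F DZ, 55.4 to 139 CPM in WT LZ and 18.6 to 48.9 CPM in WT DZ. For these markers WT DZ lay below both SykY317F DZ and WT LZ, as it did for Cd72, but overlapped SykY317F LZ, unlike for Cd72. Between the SykY317F zones they went the other way from Cd72, with a median of 62.7 CPM in LZ and 147 CPM in DZ. The part of these cells in the Cd72 results was not tested, and in sorted bulk cells fewer cells of a type and less RNA per cell cannot be told apart.

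**Figure D3:**
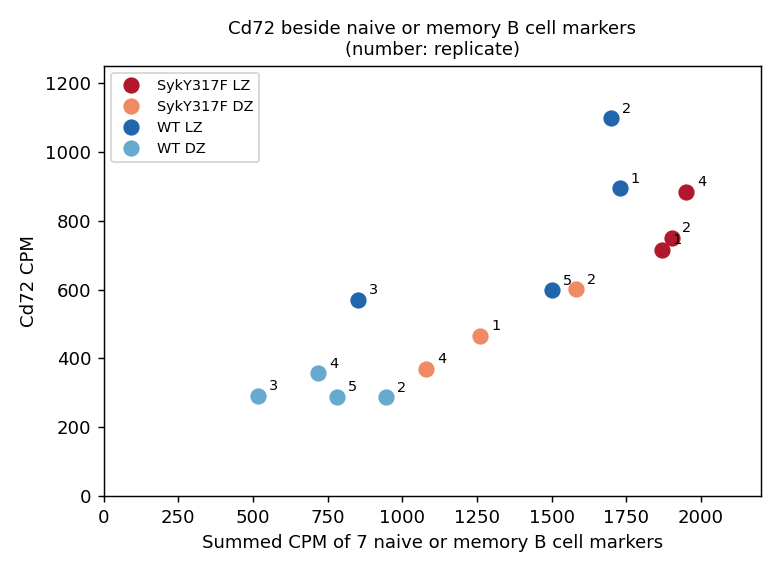
Cd72 (CPM, y axis) against the summed level of 7 naive or memory B cell markers (CPM, x axis) in each of the 14 libraries, coloured by group and numbered by replicate. The WT DZ libraries lie at the lower left with at most 946 CPM of markers and 357 CPM of Cd72, and the SykY317F LZ libraries lie at the right with at least 1869 CPM of markers.

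Cd22 had a higher level in every SykY317F LZ library than in any SykY317F DZ library. It was at 2639, 1840.3 and 1813 CPM in SykY317F LZ against 1461, 1409 and 1219 CPM in SykY317F DZ. In WT LZ it was at 1877, 1629, 1346 and 1763 CPM, against 1551, 1157, 1179 and 1351 CPM in WT DZ, and these groups overlapped. SykY317F LZ replicate 1 was well above its group's other libraries. The zone difference of Cd22 was 0.62 ± 0.24 on the log2 scale in SykY317F (interval 0.12 to 1.13, edgeR adjusted p = 0.388) and 0.34 ± 0.21 in WT (interval -0.10 to 0.77, adjusted p = 0.701). Averaged over the genotypes it was 0.48 ± 0.16 (edgeR adjusted p = 0.151), which passed in 2 other tools, with adjusted p = 0.0128 in DESeq2 and 0.0423 in limma voom, where 2.98% of the genes with an adjusted p in DESeq2 and 2.5% of all genes in limma voom passed. Between genotypes Cd22 differed by 0.34 ± 0.22 in LZ and 0.06 ± 0.22 in DZ (edgeR adjusted p = 0.652 and 0.9999), and neither pair of groups was apart. Without SykY317F LZ replicate 1 the SykY317F zone difference was 0.40 and the genotype difference in LZ was 0.12.

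Fcgr2b was counted with the fewest UMIs of the members and had the widest spread between libraries of a group, with a biological coefficient of variation of 27.2% in edgeR, against 24.5% for Cd72 and 20.02% to 22.2% for the other 3. SykY317F LZ had 107, 124 and 219.5 CPM, which were only 36, 22 and 35 UMIs, against 157.5, 67.3 and 102 CPM in SykY317F DZ. In WT LZ it was at 154, 111, 102 and 100.5 CPM, against 84.1, 65.6, 88.1 and 101 CPM in WT DZ. The zones overlapped in both genotypes, in WT by a single library pair, WT LZ replicate 5 and WT DZ replicate 5. The log2 fold change for LZ over DZ was 0.43 ± 0.34 in SykY317F and 0.46 ± 0.28 in WT (edgeR adjusted p = 0.725 and 0.678). In SykY317F it was 0.06 without LZ replicate 4, 0.83 without DZ replicate 1 and -0.04 without the 2 libraries with the fewest UMIs.

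Between genotypes Fcgr2b differed by 0.37 ± 0.30 in DZ and 0.33 ± 0.32 in LZ (edgeR adjusted p = 0.9999 and 0.775). The DZ value was -0.05 without SykY317F DZ replicate 1, and the LZ value was -0.03 without SykY317F LZ replicate 4, the highest library. Macrophages and other myeloid cells also express Fcgr2b. The summed level of 9 myeloid markers was 47.8 to 119 CPM in SykY317F LZ, 263 to 561 CPM in SykY317F DZ, 57.6 to 161 CPM in WT LZ and 91.9 to 399 CPM in WT DZ. The libraries with most myeloid signal, SykY317F DZ replicate 4 (561 CPM) and WT DZ replicate 4 (399 CPM), had 102 and 88.1 CPM of Fcgr2b, in neither case the highest of its group, and the part of myeloid cells in its level was not tested.

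Ptpn6, the SHP-1 gene, was higher in every LZ library than in every DZ library of its genotype, by less than Cd72. In SykY317F LZ it was at 1651, 1366 and 1110.2 CPM, against 949.6, 926 and 785 CPM in SykY317F DZ. In WT LZ it was at 1210.0, 1222, 1313 and 1089 CPM, against 986, 902, 899.7 and 1077 CPM in WT DZ. The WT groups were close to touching, at 1089 CPM in LZ replicate 5 and 1077 CPM in DZ replicate 5. The log2 fold change was 0.63 ± 0.23 in SykY317F (interval 0.16 to 1.11, edgeR adjusted p = 0.346) and 0.32 ± 0.19 in WT (interval -0.08 to 0.73, adjusted p = 0.689).

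Averaged over the genotypes the zone difference of Ptpn6 was 0.48 ± 0.15 (edgeR adjusted p = 0.127). It passed in DESeq2 (adjusted p = 0.00142) and limma voom (adjusted p = 0.0196), and the SykY317F difference passed in DESeq2 (adjusted p = 0.0263), where 0.85% of genes with an adjusted p did. In the authors' deposited table the SykY317F difference was 0.63 with an adjusted p of 0.0522. Members with all LZ libraries above all DZ libraries were Cd72, Cd22 and Ptpn6 in SykY317F, 3 of 5 where 6.56% of all genes showed this, and Cd72 and Ptpn6 in WT, 2 of 5 where 2.89% did. Between genotypes Ptpn6 differed by 0.19 ± 0.21 in LZ and -0.12 ± 0.21 in DZ (edgeR adjusted p = 0.817 and 0.9999).

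Inpp5d, the SHIP-1 gene, was the steadiest member. It was at 331, 237 and 276 CPM in SykY317F LZ against 245, 206 and 216 CPM in SykY317F DZ. In WT LZ it was at 295, 258, 249.5 and 247 CPM, against 281, 207, 191 and 237 CPM in WT DZ. The zones overlapped in both genotypes. Its zone difference was 0.35 ± 0.23 in SykY317F and 0.20 ± 0.19 in WT (edgeR adjusted p = 0.653 and 0.836), and its genotype difference was 0.11 ± 0.22 in LZ and -0.04 ± 0.21 in DZ (adjusted p = 0.908 and 0.9999). The standard deviation of its log2 CPM over the 14 libraries was 0.22, lower than in all but 1.19% of tested genes, against 0.29 for Ptpn6, 0.33 for Cd22, 0.46 for Fcgr2b, 0.66 for Cd72 and a median of 0.56 over genes.

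**Figure D4:**
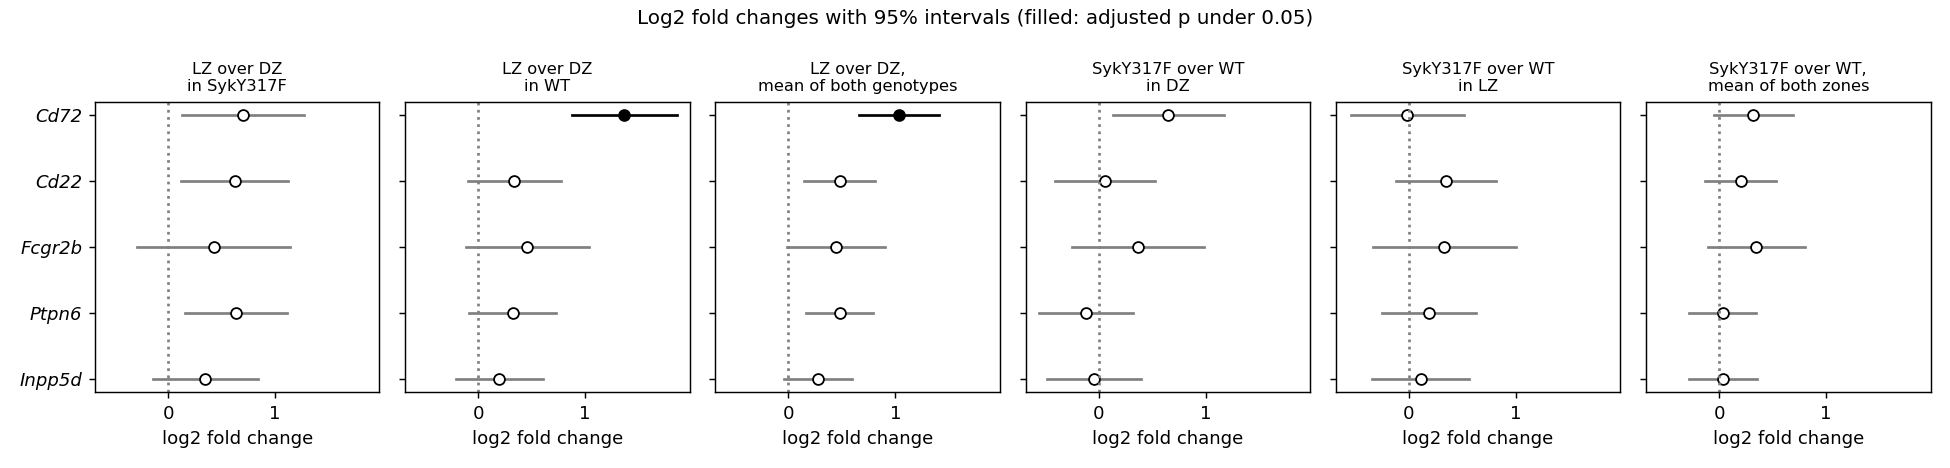
Log2 fold changes of the 5 genes in edgeR for LZ over DZ and SykY317F over WT, with bars for the 95% interval and a line at 0. In both genotypes all 5 points for LZ over DZ lie above 0, from 0.35 to 0.70 in SykY317F and from 0.20 to 1.37 in WT, and the interval of Cd72 in WT lies farthest from 0.

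For LZ over DZ the 5 log2 fold changes were above 0 in both genotypes, where 46.7% of all genes were above 0 in SykY317F and 48.3% in WT. The median over the members was not tested, and with scaling by library size alone, which shifted the median of all genes to -0.19 in SykY317F, the members' signs for the zones were unchanged. Without the 2 libraries with the fewest UMIs, which leaves SykY317F LZ replicate 1 alone in its group, the SykY317F zone differences were 0.57 for Cd72, 0.95 for Cd22, -0.04 for Fcgr2b, 0.89 for Ptpn6 and 0.57 for Inpp5d, none past the threshold. The lone library was there assumed to vary like those of the other groups. For SykY317F over WT, 3 of 5 were above 0 in DZ and 4 of 5 in LZ, against 45% and 46% of all genes. None of the 5 members passed between genotypes in either zone in edgeR, DESeq2 or limma voom. None of them had LZ libraries apart, a split that 3.84% of all genes showed with SykY317F higher and 6.66% with SykY317F lower. Over all genes edgeR and limma voom called 0%, and DESeq2 called 2 genes in DZ (0.025%) and 37 in LZ (0.807%), as shares of the 7998 and 4587 genes that kept an adjusted p. At an unadjusted p under 0.05 edgeR gave 1 of 5 members in DZ (Cd72) and 0 of 5 in LZ, beside 3.81% and 9.81% of all genes.

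Exact two-sided permutation tests of log2 CPM, run on the 5 genes for the 4 comparisons of single groups, gave p = 0.0286 for Cd72 and for Ptpn6 between the WT zones, the smallest that 4 against 4 libraries allow. For Cd72, Cd22 and Ptpn6 between the SykY317F zones they gave 0.1, the smallest for 3 against 3, and for Cd72 between genotypes in DZ 0.0571, the smallest for 3 against 4. After adjustment over the 20 exact tests the lowest value was 0.25.

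Ratios within a library do not depend on how libraries are scaled. They were formed after the values were seen, and their size is not read, since transcript-end counts of different genes are compared. The ratio of Cd72 to Ptpn6 was 0.593 ± 0.185 in SykY317F LZ and 0.537 ± 0.0973 in SykY317F DZ, and these overlapped. It was 0.655 ± 0.205 in WT LZ and 0.320 ± 0.0558 in WT DZ (SD, n = 4 each), with the lowest LZ library at 0.434 and the highest DZ library at 0.397. All SykY317F DZ libraries (0.472 to 0.649) lay above all WT DZ libraries (0.269 to 0.397). For the ratio of Cd72 to Cd22 these groups nearly touched, at 0.304 to 0.426 in SykY317F DZ and 0.185 to 0.303 in WT DZ. How often ratios of other genes split in this way was not tested. The ratio of Cd22 to Ptpn6, a receptor and the phosphatase it recruits, was 1.53 ± 0.156 in SykY317F LZ, 1.54 ± 0.0152 in SykY317F DZ, 1.38 ± 0.267 in WT LZ and 1.36 ± 0.146 in WT DZ.

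Likeness between genes was measured as the mean absolute difference of log2 CPM, each gene centred on its own mean, over the 14 libraries, which share depth and zone. The genes nearest to Cd72 were Chd2, a chromatin remodeller, at 0.16, Hexa, a subunit of a lysosomal hexosaminidase, at 0.20 and Anxa6, an annexin, at 0.22, where the median gene was at 0.70. The other members ranked between 224 and 614 in likeness to Cd72. Cd22, Ptpn6 and Inpp5d were closer to each other: Inpp5d ranked 4 and Ptpn6 ranked 9 for Cd22, and Inpp5d ranked 6 and Cd22 ranked 12 for Ptpn6. Genes that vary little are near to one another by this measure. Nearest to Cd22 were Zfhx2 (0.0999), Dnajc7 (0.14) and H2-DMb1 (0.14), nearest to Ptpn6 were Il21r (0.14), Pqbp1 (0.15) and Arhgap17 (0.15), and nearest to Inpp5d were Pou2f2, Rps2 and Cc2d1b (0.11 each). Those nearest to Fcgr2b were Map4k2, Myo9b and Srbd1 (0.18 each).

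Of 67 other genes listed for the pathway, 50 were tested, and 1 passed in edgeR in any comparison. It was Fcer2a, the gene of the low-affinity IgE receptor CD23 and also a naive B cell marker, which rose in LZ over both genotypes by 0.74 ± 0.18 (edgeR adjusted p = 0.0434). In each of the other comparisons edgeR called 0 of 50, with 4 at an unadjusted p under 0.05 between the SykY317F zones (10.3% of all genes), 6 between the WT zones (8.48%), 4 between genotypes in DZ (3.81%) and 1 in LZ (9.81%). Between the WT zones DESeq2 called 1 of 50 (Fcer2a, where 1.05% of genes with an adjusted p passed) and limma voom 2 (Fcer2a and Pirb, where 3.65% of all genes did). Over both genotypes each called 3 (Blnk, Fcer2a and Pirb), where 2.98% and 2.5% passed. The median log2 fold change of the 50 genes for the zones was -0.06 in SykY317F and 0.05 in WT, beside -0.04 and -0.02 over all genes.

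Among the other inhibitory receptors 9 of 15 were tested and 0 passed in edgeR. At an unadjusted p under 0.05 there were 0 of 9 between the SykY317F zones (10.3% of all genes) and 3 between the WT zones (8.48%). Between genotypes there were 2 in DZ (3.81%) and 0 in LZ (9.81%). Pirb, called by DESeq2 and limma voom over both genotypes, is a receptor for MHC class I that also occurs on myeloid cells and had a zone difference of 0.71 ± 0.39 in SykY317F and 1.13 ± 0.32 in WT (edgeR adjusted p = 0.563 and 0.185). Ceacam1, a cell adhesion molecule with ITIMs, differed between genotypes in DZ by 1.42 ± 0.45 (edgeR adjusted p = 0.766). It was counted with only 5 to 15 UMIs per WT DZ library and 8 to 30 per SykY317F DZ library. Among the other phosphatases 12 of 16 were tested and 0 passed in edgeR. A zone difference above 0 was found in 2 of 12 in SykY317F and 6 of 12 in WT, beside 46.7% and 48.3% of all genes, and in Ptpn6 and Inpp5d in both genotypes. Ptpn11, the SHP-2 gene, had -0.22 ± 0.63 in SykY317F and 0.73 ± 0.42 in WT, and Ptprc, the CD45 gene, had -0.60 ± 0.59 in SykY317F and 0.15 ± 0.48 in WT. Ptpn22, a tyrosine phosphatase, differed between genotypes in DZ by 2.30 ± 0.67 (edgeR adjusted p = 0.766). This rests on low counts, 4 to 11 UMIs per WT DZ library and 10 to 50 per SykY317F DZ library.

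Of the inhibitory adaptors and kinases 12 of 19 were tested and 0 passed in edgeR. Lyn, the kinase that phosphorylates ITIMs, had a zone difference of -0.22 ± 0.26 in SykY317F and -0.18 ± 0.21 in WT. Of the 17 receptor components, co-receptors and ligands, all were tested. Sema4d, which makes the CD72 ligand, had 0.76 ± 0.32 in SykY317F and 0.43 ± 0.27 in WT (edgeR adjusted p = 0.414 and 0.704). St6gal1, which makes CD22 ligands, had values of the opposite sign, -0.71 ± 0.31 in SykY317F and -0.30 ± 0.25 in WT (edgeR adjusted p = 0.436 and 0.789). Blnk, the adaptor downstream of Syk, had -0.72 ± 0.27 in SykY317F (adjusted p = 0.357). Syk itself had -0.40 ± 0.23 in SykY317F and -0.29 ± 0.19 in WT, and its genotype difference over both zones was 0.03 ± 0.15. A point mutant is transcribed, so this does not check the genotype labels.

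The antigen receptor chains and the complement receptor did not pass in edgeR either. Over both genotypes Cd79a had a zone difference of 0.33 ± 0.16, Cd79b of -0.23 ± 0.17 and Cr2, the complement receptor CD21, of -0.05 ± 0.44 (edgeR adjusted p = 0.366, 0.550 and 0.983). Btk, a kinase activated after Syk, differed between genotypes in LZ by 0.79 ± 0.34 (edgeR adjusted p = 0.440).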

How the data were processed

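GC B cells sorted by zone were profiled with a variation of MARS-seq, which tags transcript ends, per the labels' protocols. Cutadapt, STAR 2.4.2a, HTSeq, DESeq2, DESeq and mm10 are named in the submitters' processing notes, with no role or order. The deposited UMI counts, whole numbers for 9969 genes in 14 libraries, were analysed, and the deposited read counts (11914 rows, of which 2 with a repeated symbol were left out) were an alternative. Read counts keep PCR copies, which UMI counting removes. The normalised signal (UMIs divided by size factors) and regularised log2 values that the authors deposited were not used in the tests. The authors' deposited log2 fold changes and adjusted p-values are quoted where named.

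Groups came from the genotype and zone labels. Genes kept by filterByExpr (7999, holding 99.3% of UMIs) were normalised with TMM, then fitted with edgeR 4.0.16 (quasi-likelihood, robust, 4 groups, R 4.3.3), with Benjamini-Hochberg adjustment over all tested genes and a threshold of 0.05. Log2 CPM used a prior count of 2. Library depth was 149641 to 1767898 UMIs. Counting floors (3 UMIs, up to 18.8 CPM) cover counting error only. Alternatives were DESeq2 1.42.0, its size factors, library-size scaling, limma 3.58.1 voom, filters, fits of both groups alone, a replicate block, read counts and left-out libraries. The fit was tested on simulated counts. Members, lists and tests were chosen with earlier results of these data known. Named genes were the members, genes overlapping them, list genes past the threshold or with the 2 smallest p in a comparison, 11 fixed pathway genes, and the 3 genes most like each member. A part of these genes is named here, and naive or zone markers are named as markers only.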

Additional observations from a re-analysis of the deposited data

Results flagged for a closer look

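Within groups of 4 libraries, 48 group and gene pairs were looked at for a library far from the others, and 7 stood apart; chance alone gives about 1 in 20. Among the members this was Cd72 in WT DZ, where replicate 4 was at 357 CPM and the others between 287 and 292 CPM. The same library was high for Cd5, at 9.79 CPM against 2.24 to 3.14 CPM in the other WT DZ libraries. Cd5 was near the counting floor there, with 2 to 11 UMIs per WT DZ library and 21 in total. Cd79b was high in WT DZ replicate 5, at 6904 CPM against 4023 to 4362 CPM. Pirb was low in WT DZ replicate 3, at 18.6 CPM against 36.2 to 38.3 CPM. St6gal1 was low in WT DZ replicate 2, at 252 CPM against 319 to 329 CPM. In WT LZ, replicate 1 was high for Lyn, at 179.9 CPM against 123 to 131 CPM, and for Sema4d, at 499 CPM against 259 to 282 CPM.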

How the results depend on the processing

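Over 35 results of the members and up to 24 settings, 825 alternatives were computed, of which 781 kept the direction and the side of the threshold, 34 changed sign, 5 lost a call and 5 gained one. The cause of each change was not tested. Cd72 between the WT zones lost its call in a fit of both groups alone (1.38), on read counts (1.46) and in 2 of the fits that left out a library (1.17 to 1.49 over all), and over both genotypes without the 2 libraries with the fewest UMIs (0.98). DESeq2 called Ptpn6 between the SykY317F zones (0.64) and Cd22 and Ptpn6 over both genotypes (0.48 each), and limma voom called Cd22 (0.51) and Ptpn6 (0.53) over both genotypes. All sign changes were in values that did not pass. Cd72 between genotypes in LZ was 0.015 with DESeq2 size factors, 0.025 with a stricter filter, 0.013 in DESeq2, 0.018 in voom, 0.022 in a fit of both groups alone and -0.14 to 0.19 with a library left out. Ptpn6 between genotypes over both zones was -0.0046 with library-size scaling and -0.056 to 0.092 with a library left out. Inpp5d between genotypes was 0.089 in DZ in voom, -0.062 over both zones on read counts, and with a library left out -0.13 to 0.066 in DZ, -0.055 to 0.19 in LZ, -0.051 to 0.086 over both zones and -0.0095 to 0.23 for the difference of zone effects. Without the 2 libraries with the fewest UMIs, Fcgr2b was -0.039 between the SykY317F zones and -0.12 between genotypes in LZ. With a library left out Fcgr2b ran from -0.046 to 0.64 between genotypes in DZ, from -0.034 to 0.53 in LZ and from -0.40 to 0.37 for the difference of zone effects, and Cd22 from -0.0014 to 0.15 between genotypes in DZ.

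Counts of genes past the threshold moved more than the members did. DESeq2 called 39 genes between the SykY317F zones, 84 between the WT zones, 2 between genotypes in DZ, 37 in LZ, 234 for zones and 47 for genotypes over both. Voom called 292 between the WT zones, 200 for zones and 7 for genotypes over both. Library-size scaling called 9 between the SykY317F zones and 1 between genotypes in LZ. Fits of both groups alone called 1 between the SykY317F zones and 6 between the WT zones. Read counts called 20 between the SykY317F zones, 0 between the WT zones, 54 between genotypes in LZ, 49 for zones and 10 for genotypes over both. Without the 2 libraries with the fewest UMIs the counts were 0 in SykY317F, 9 in WT and 17 over both genotypes. With a library left out they ran from 0 to 10 in SykY317F, 1 to 26 in WT, 0 to 5 between genotypes in LZ, 42 to 152 for zones and 0 to 5 for genotypes over both.

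Replicate numbers were not treated as pairs, since not every same-numbered pair correlated above 0.1. Deviations of same-numbered libraries correlated between -0.0694 and 0.215 in SykY317F zones, where different numbers gave -0.258 to 0.152. In WT zones they correlated between -0.555 and 0.154, where different numbers gave -0.53 to 0.57. Between genotypes in DZ the values were -0.173 and -0.0184, beside -0.524 to 0.490 for different numbers. In LZ they were 0.177 and 0.178, both above the range of different numbers, -0.185 to 0.116. With so few pairs this check cannot show that pairing is absent. With the number as a replicate block, Cd72 between the WT zones was 1.31 (edgeR adjusted p = 0.0352) and 1 gene passed in SykY317F in place of 3. Cd22 between genotypes in DZ was then -0.064, Inpp5d over both zones -0.038 and the Fcgr2b difference of zone effects 0.032. Depth limits Fcgr2b most, with 22 to 36 UMIs in SykY317F LZ.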
